A study of Mus musculus with 4 samples.

Results

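The 38 genes described here encode integrin subunits, the proteins that link integrins to actin or switch them on, and other adhesion molecules of leukocytes. They were found by symbol among the 52636 gene lines of the count table, and all 38 had a line. Of them, 19 are integrin subunits (14 alpha and 5 beta), 12 are linkers and activators, and 7 are other adhesion genes. The cells were mouse Hoxb8 cells; this homeobox gene is used to immortalise blood progenitors, and such lines serve as models of early myeloid cells. In the EV group (n = 2 libraries) they expressed an empty vector, and in the R882H group (n = 2) the variant DNMT3A R882H, a substitution in a DNA methyltransferase that recurs in acute myeloid leukaemia. No treatment, time point or strain is given, nor are the promoter of the vector, the number of clones or the origin of the replicates, so the p-values cover no more than the spread between libraries, which may be technical.

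Integrins are heterodimers of an alpha and a beta subunit on the cell surface. Talin and kindlin bind the tail of the beta subunit and switch the dimer to its high-affinity state, and vinculin, paxillin and the complex of ILK, PINCH and parvin tie it to actin. In blood cells the beta2 dimers bind ICAM proteins, alpha4 pairs with beta1 or beta7 to bind VCAM-1, MAdCAM-1 and fibronectin, and alpha6 pairs with beta1 to bind laminin. Haematopoietic progenitors use these receptors to stay in bone marrow niches and leukocytes use them to leave vessels.

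Libraries held 5470330 to 5921985 counts, and a count of 0 allows up to 0.502 to 0.55 CPM, the counts of a gene scaled to a common library total. Levels below use TMM factors and are given as mean ± SD (n = 2 per group), and fold changes are R882H over EV on the log2 scale ± SE from edgeR. All 11 markers of myeloid progenitors were tested, with sums of 2290 to 2440 CPM in EV and 3670 to 3770 CPM in R882H. Of these, 3 rose (the peroxidase gene Mpo by 5.25 ± 0.17, Kit by 1.55 ± 0.17 and Myb by 0.37 ± 0.13) and 3 fell (Hoxb8 with −1.92 ± 0.45, Csf2ra with −1.18 ± 0.19 and Cebpa with −0.74 ± 0.14), while Cd34, with the most counts of the list, was not called (0.08 ± 0.14). Over 13 megakaryocyte markers the summed level was 873 to 1060 CPM in EV and 18.1 to 22.6 CPM in R882H, with Pf4 at 1030 and 844 CPM in EV and 15.1 and 10.5 CPM in R882H; Ppbp and Gp9 had the next most counts and Gp6, Tubb1, Treml1 and Selp had none. Over 10 mast cell and basophil markers, led by Cpa3, Kit and Gata2, the sum was 120 to 135 CPM in EV and 501 to 503 CPM in R882H. Fcer1a, Cma1 and Tpsb2 had no counts. Of the 6 tested, 5 were higher, among them Cpa3 (22.5 ± 1.68 CPM in EV and 300 ± 17.3 CPM in R882H). Gata2 was lower, with 50 ± 1.45 and 27.5 ± 6.1 CPM. Over 10 B-lineage markers (Igll1, Ebf1, Vpreb1) it was 548 to 569 and 1670 to 1680 CPM, over 12 neutrophil markers (Ctsg, Mpo, Prtn3; Ltf, Camp, Ngp and S100a9 at 0) 1430 to 1570 and 3100 to 3190 CPM, and over 10 monocyte and macrophage markers (Ccr2, Irf8, Cd68; Mrc1 at 0) 115 to 122 and 241 to 259 CPM. Over 10 dendritic cell markers, led by Flt3, H2-Ab1 and Zbtb46, the sum was 426 to 448 CPM in EV and 604 to 693 CPM in R882H. Siglech and Cd209a had no counts. Of the 2 tested, Flt3 rose (0.65 ± 0.14) and H2-Ab1 fell (−1.39 ± 0.19). Zbtb46 had 5 and 4 counts in EV and Batf3 had 3 and 4, with 0 in R882H for each. Sums stayed at or below 44.4 CPM in every library for the erythroid (Hbb-bt, Hbb-bs, Klf1), endothelial (Eng, Plvap, Kdr; Cdh5 and Tek at 0) and T cell (Lck, Lat, Cd3d; Cd3e at 0) lists. The fibroblast list (Thy1, Postn, Pdgfrb; Col1a1, Col1a2 and Col3a1 at 0) summed to 624 to 713 CPM in EV and 94.6 to 119 CPM in R882H; Thy1 had 660 ± 62.9 and 9.64 ± 2.46 CPM, and Postn went the other way, with 6.49 ± 0.938 and 96.2 ± 15.2 CPM. The Y-linked genes Ddx3y, Eif2s3y, Uty and Kdm5d summed to 0.367 and 0.706 CPM in EV against 18.4 and 15.3 in R882H, while Xist had 268 and 254 against 315 and 265 CPM. Whether both groups came from 1 parental line is not stated, and a difference between parental cells and the effect of the variant cannot be told apart in any comparison below. The part of these differences in the results below was not tested.

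Of the 38 genes, 28 had enough counts to be tested, and 16 of these were called (edgeR quasi-likelihood test, Benjamini-Hochberg adjusted p under 0.05 over all 11444 tested genes): 7 were higher and 9 lower in R882H. Among all tested genes 38.8% were called, 19.3% higher and 19.4% lower, so a call is common in this comparison. A gene that is scarce in 1 group can reach the test through the other group alone, so the tested genes are not a neutral choice of the 38. Of the 13 tested integrin subunits 5 rose and 4 fell, of the 9 tested linkers none rose and 3 fell, and of the 6 tested adhesion genes 2 rose and 2 fell. A change of at least 2-fold was called upward for 4 of the 28 (7.82% of all tested genes) and downward for 2 (6.3%). The libraries of the 2 groups did not overlap for 21 of the 28, against 69.1% of all tested genes. The median log2 fold change was 0.19 for integrin subunits, −0.24 for linkers and −0.21 for adhesion genes, beside 0.01 for all tested genes. The median size of the change, sign ignored, was 0.89, 0.24 and 0.66 for the 3 classes and 0.36 for all tested genes. Without EV replicate 2 only 5 of the 38 were called lower, and without EV replicate 2, R882H replicate 1 or R882H replicate 2 only 2 integrin subunits were.

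**Figure D1:**
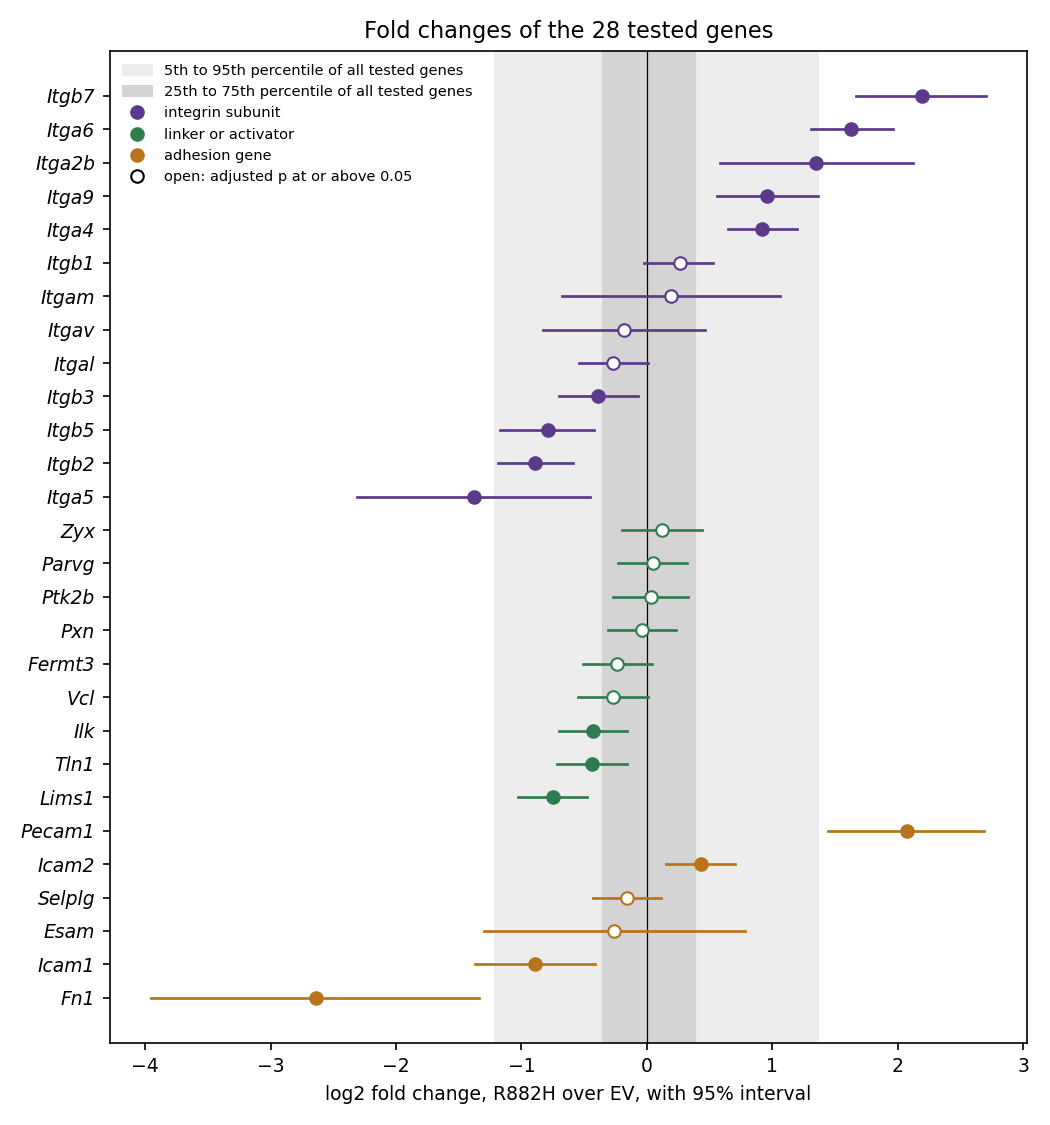
Log2 fold change (R882H over EV, x axis) of each of the 28 tested genes with its 95% interval from edgeR. Filled points passed an adjusted p of 0.05, and grey bands span the middle of all 11444 tested genes; Itgb7, Itga6 and Pecam1 lie above the wider band and Fn1 and Itga5 below it, while no linker lies outside it.

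The alpha4 and beta7 subunits, which form a pair that binds MAdCAM-1, were both higher in R882H. Their promoter regions are shown with that of the beta5 subunit, which fell, because the groups differ in a DNA methyltransferase, whose substrate is the CpG dinucleotide. Each line gives the 250 bases before the RefSeq start (GRCm38.p6, the assembly of mm10), 5′ to 3′ on the strand of the gene, with CpG in capitals. The windows are chr2:79255176-79255425 on the plus strand for Itga4, chr15:102231936-102232185 on the minus strand for Itgb7 and chr16:33829415-33829664 on the plus strand for Itgb5.
Itga4: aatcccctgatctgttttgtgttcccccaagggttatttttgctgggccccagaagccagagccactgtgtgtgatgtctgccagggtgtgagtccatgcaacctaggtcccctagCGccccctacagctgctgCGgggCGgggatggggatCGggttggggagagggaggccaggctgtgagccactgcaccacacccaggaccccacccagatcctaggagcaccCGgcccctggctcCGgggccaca
Itgb7: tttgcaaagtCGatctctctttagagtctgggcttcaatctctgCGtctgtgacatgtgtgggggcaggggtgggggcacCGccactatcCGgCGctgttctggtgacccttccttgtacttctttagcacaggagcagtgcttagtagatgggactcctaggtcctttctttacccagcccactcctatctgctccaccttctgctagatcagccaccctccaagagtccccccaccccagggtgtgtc
Itgb5: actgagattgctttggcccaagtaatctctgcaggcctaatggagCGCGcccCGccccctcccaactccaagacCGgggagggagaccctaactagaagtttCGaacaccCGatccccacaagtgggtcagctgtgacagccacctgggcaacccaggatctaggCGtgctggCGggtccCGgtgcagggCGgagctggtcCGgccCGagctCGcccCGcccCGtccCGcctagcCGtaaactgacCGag

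Itga4 has 6 CpG in its window, Itgb7 has 5 and Itgb5 has 18, against a median of 6 over 27025 genes of the RefSeq table. The table has an entry for 21 of the 38 genes. The 4 members that rose and have one (Itga2b, Itgb7, Itga4 and Itga9) had 2 to 10 CpG, with a median of 5.5. The 6 that fell and have one (Itga5, Itgb5, Icam1, Tln1, Lims1 and Ilk, the last pair averaged over several starts) had 10.3 to 27, with a median of 13.5. Not every window lies before the GENCODE gene start. That of Itga9 begins at 118711442, inside the gene, which starts at 118606690, and that of Itga2b lies largely within its gene model. The windows of the later Lims1 starts, the Parvg windows and the Itga3 window that begins at 95069199 also lie inside their genes. Most of the Zyx window and most of the later Ilk window do so too. Members that were not called also reached high counts, with a median of 15 over 7 genes and a range of 1 to 24. Methylation was not measured here. In the 26 windows of these genes 3 short motifs were searched on both strands. The sequence GAGGAA, bound by factors such as PU.1, was in 9 windows, beside 23.3% of all 32851 windows in the table. The RUNX core TGTGGT was in 6 windows, beside 14% in the table. The motif GATAA, for erythroid and megakaryocytic factors, was in 3 windows, beside 22.6% in the table. Itgb7 and Itgb5 had none of the 3, Itga4 had the RUNX core and Itga2b had 2 copies of the PU.1 core; these are matches of letters, not sites.

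The beta7 gene Itgb7 (ENSMUSG00000001281, mm10 chromosome 15, 102215995 to 102231944) had 4.03 and 4.06 CPM in the EV libraries and 19.4 and 17.6 CPM in the R882H libraries. The 2 groups lay far apart relative to the spread within each. Its level rose from 4.05 ± 0.0179 to 18.5 ± 1.31 CPM, with a log2 fold change of 2.19 ± 0.26 (edgeR test, adjusted p = 1.48e-08), the largest rise among the 28. As the data are from bulk RNA, more cells with the transcript and more transcript per cell cannot be told apart, here and below. Its main partner Itga4 (ENSMUSG00000027009, chromosome 2, 79255426 to 79333123) started from a much higher level, with 64.7 and 71.7 CPM in EV against 136 and 123 in R882H. The groups did not overlap, and the log2 fold change was 0.92 ± 0.13 (edgeR adjusted p = 9.98e-07). The exons of Itga4 overlap those of Cerkl on the other strand, which had 20 to 44 counts per library against 353 to 811 for Itga4. The other partner of beta7, Itgae, which encodes the alphaE subunit of intraepithelial T cells, had 3, 0, 4 and 3 counts and was not tested. The ratio of its summed counts was 2.22, with an interval from 0.507 to 13.3 for counting error only.

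Further alpha subunits that pair with beta1 rose as well. The laminin receptor gene Itga6 (ENSMUSG00000027111, chromosome 2, 71745616 to 71858416) had 20.4 and 29.5 CPM in EV against 81.1 and 73.6 in R882H. Both R882H libraries lay far above the higher EV library, and the log2 fold change was 1.63 ± 0.16 (edgeR adjusted p = 3.06e-10). Itga9, whose product binds tenascin and osteopontin, had 12.5 and 11.3 CPM in EV against 23.8 and 22.5 in R882H (0.96 ± 0.20, edgeR adjusted p = 0.000177). The groups did not overlap for either gene. The calls of Itgb7, Itga4, Itga6 and Itga9 were kept in every alternative that tests them. The beta1 gene Itgb1 itself, the most abundant beta subunit here, had 200 and 179 CPM in EV against 207 and 246 in R882H. It was not called (0.26 ± 0.13, 95% interval −0.02 to 0.53, edgeR adjusted p = 0.129).

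Itga5, which encodes the alpha subunit of the classical fibronectin receptor, moved the other way. It had 16 and 29 counts in EV and 10 and 8 in R882H, or 2.93 and 5.12 against 1.67 and 1.40 CPM. The log2 fold change was −1.38 ± 0.46 (edgeR adjusted p = 0.0162), and the call ended in DESeq2 (adjusted p = 0.119) and without EV replicate 2 (0.283), R882H replicate 1 (0.0714) or R882H replicate 2 (0.118). Fn1, the gene of its ligand fibronectin, also had few counts: 19 and 12 in EV and 2 and 3 in R882H. It fell from 2.80 ± 0.966 to 0.431 ± 0.136 CPM, with a log2 fold change of −2.64 ± 0.64 (edgeR test, adjusted p = 0.00125); without EV replicate 1 the adjusted p was 0.0595.

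The beta2 subunit, shared by LFA-1, Mac-1 and their relatives on leukocytes, was lower. Itgb2 (ENSMUSG00000000290, chromosome 10, 77530252 to 77565708) had 60.5 and 67.3 CPM in EV against 37.1 and 31.8 in R882H. The groups did not overlap, the log2 fold change was −0.89 ± 0.15 (edgeR adjusted p = 1.06e-05), and every alternative kept the call. Its chief partner here, Itgal, the alpha subunit of LFA-1, had the most counts of the alpha subunits in each library (in R882H narrowly, ahead of Itga4), with 146 and 182 CPM in EV against 140 and 131 in R882H. It was not called (−0.27 ± 0.14, 95% interval −0.54 to 0.01, edgeR adjusted p = 0.115), although without EV replicate 1 it passed (−0.42, adjusted p = 0.0124). Itgam, the alpha subunit of Mac-1 on mature myeloid cells, was scarce, with 2.93 and 3.18 CPM in EV against 5.02 and 1.93 in R882H. Its R882H libraries lay on both sides of the EV libraries (0.19 ± 0.43, 95% interval −0.68 to 1.06). Itgax, the CD11c gene of dendritic cells, had no counts in EV and 5 and 3 in R882H, and was not tested. Its observed R882H level was 2.54 times the limit of 3 counts over the EV group, without counting error.

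The subunits of platelet and vitronectin receptors gave no common direction. Itga2b, which encodes the CD41 chain of the platelet fibrinogen receptor and also marks early progenitors, had 2.02 and 2.65 CPM in EV against 6.36 and 5.62 in R882H. It rose by a log2 fold change of 1.35 ± 0.38 (edgeR test, adjusted p = 0.00466), with adjusted p = 0.0514 without R882H replicate 1 and 0.054 in DESeq2. The megakaryocyte markers given above were lower in R882H in sum, with Pf4 going from 939 ± 134 to 12.8 ± 3.20 CPM, the opposite direction to Itga2b; Gp9 had 3.87 ± 0.486 and 5.15 ± 0.659 CPM. Itgb3, its partner, had 43.1 and 54.0 CPM in EV against 37.8 and 36.5 in R882H (−0.39 ± 0.16, edgeR adjusted p = 0.0471). That call was close to the threshold and ended in DESeq2 (0.164), with robust=FALSE (0.0552), without the low-count filter (0.054) and without EV replicate 2 (0.335), R882H replicate 1 (0.156) or R882H replicate 2 (0.233). Itgb5, which pairs with alphav, had 25.7 and 33.4 CPM in EV against 17.9 and 16.1 in R882H and fell in every alternative (−0.79 ± 0.18, edgeR adjusted p = 0.000736). Itgav itself had 7.70 and 4.77 CPM in EV against 5.86 and 5.09 in R882H, inside the EV range (−0.18 ± 0.32, 95% interval −0.83 to 0.46). The alpha genes Itga2, Itga3 and Itga7 had no counts in any library. The collagen receptor gene Itga1 had none in EV and 11 and 5 in R882H, 5.08 times the limit of 3 counts over the EV group, without counting error. Its exons overlap Gm49395 on the same strand, which had 159 to 300 counts per library.

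**Figure D2:**
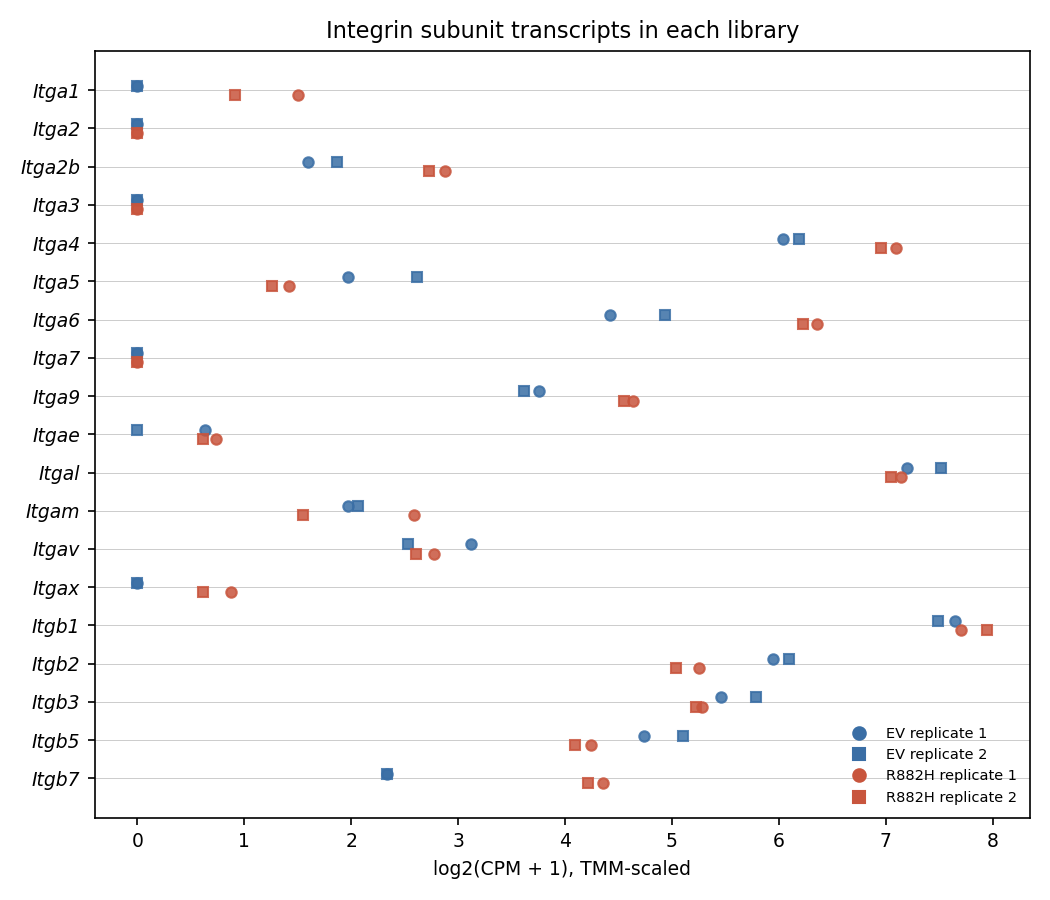
Level of each of the 19 integrin subunits in each library, as log2(CPM + 1) with TMM scaling (x axis); circles are replicate 1 and squares replicate 2 of each group. Itga4, Itga6, Itga9, Itga2b and Itgb7 have both R882H libraries to the right of both EV libraries, Itgb2, Itgb5 and Itga5 have them to the left, and Itga2, Itga3 and Itga7 sit at 0.

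The beta totals overlapped between the groups, but the share of each of the 5 beta genes did not. Among the alpha genes the shares of Itgal, Itga4, Itga6 and most others with counts did not overlap either. Such separation is common with 2 libraries against 2: the groups did not overlap in CPM for 69.1% of all tested genes. In this 3′ tag protocol a transcript gives about 1 tag whatever its length, so counts were compared between genes without a length correction; shares carry exact 95% intervals for counting error only. The 5 beta genes summed to 335.3 ± 3.02 CPM in EV against 333.3 ± 20.1 in R882H, with the R882H libraries on both sides of the EV libraries. Among them the Itgb7 share was 1.21% (0.76 to 1.83) and 1.20% (0.764 to 1.80) in EV and 6.08% (5.05 to 7.25) and 5.05% (4.13 to 6.11) in R882H. The Itgb2 share was 18.2% (16.4 to 20.0) and 19.9% (18.2 to 21.8) in EV and 11.6% (10.2 to 13.2) and 9.14% (7.91 to 10.5) in R882H. Itgb1 held 60.0% and 53.0% in EV and 64.8% and 70.7% in R882H, and in both groups the counting intervals of the 2 libraries did not overlap. The 14 alpha genes summed to 284.6 ± 35.6 CPM in EV against 385 ± 25.8 in R882H, a ratio of 1.35. Itgal held 56.2% and 58.6% of alpha counts in EV and 34.8% and 35.9% in R882H. Itga4 went from 24.9% and 23.1% to 33.7% and 33.6%, and Itga6 from 7.84% and 9.52% to 20.1% in both R882H libraries. With 2 libraries against 2 an exact permutation test of such a share cannot go below p = 0.333, so the shares are given without a test.

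**Figure D3:**
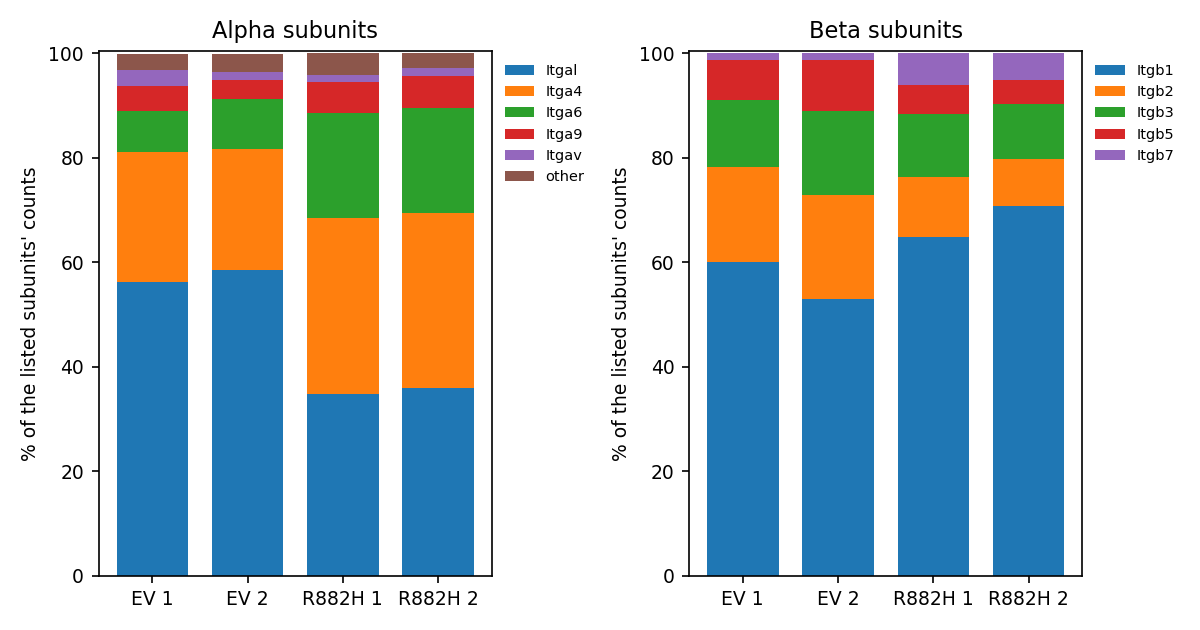
Share of each subunit (y axis, % of the counts of the listed alpha or beta genes) in each of the 4 libraries, with the 5 most abundant genes in colour and the other alpha genes combined. The Itgal share is 56.2% and 58.6% in EV and 34.8% and 35.9% in R882H, and the Itgb7 share stays at or below 1.21% in EV and at or above 5.05% in R882H.

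Of the 12 linkers and activators 9 were tested, and most of these had small fold changes. The 12 summed to 1785 ± 161 CPM in EV against 1525 ± 18.9 in R882H, and the 9 tested genes had log2 fold changes between −0.75 and 0.12. None was called higher by edgeR or by DESeq2, and none had an unadjusted p under 0.05 in that direction. Lims1 (ENSMUSG00000019920, chromosome 10, 58323466 to 58424691) encodes PINCH1, the adaptor that binds ILK. It had 105 and 107 CPM in EV against 68.4 and 57.0 in R882H (−0.75 ± 0.14, edgeR adjusted p = 3.16e-05), the one linker whose call every alternative kept. Both R882H libraries lay below both EV libraries.

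Ilk, the pseudokinase of the same complex, had 264 and 258 CPM in EV against 177 and 211 in R882H (−0.43 ± 0.13, edgeR adjusted p = 0.0104). Its call ended without R882H replicate 1 (adjusted p = 0.297), and its exons overlap those of Taf10 on the other strand, which had 1767 and 1778 counts in EV and 1249 and 1423 in R882H. Since the strand setting of the counting is not known, reads of Ilk and Taf10 cannot be told apart. The third member of the complex, Parvg, the parvin of blood cells, had 304 and 361 CPM in EV against 328 and 359 in R882H. Its groups overlapped and the interval of the log2 fold change was −0.23 to 0.32. Parva, the broadly expressed parvin, had 1 count in all 4 libraries.

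Of the proteins that bind the beta tail, Tln1, the talin of blood cells, had 269 and 311 CPM in EV against 236 and 192 in R882H (−0.44 ± 0.14, edgeR adjusted p = 0.0105). The call ended without EV replicate 2 (0.0605) and without R882H replicate 2 (0.320, log2 fold change −0.28), and the exons overlap Creb3, which had 72 to 98 counts. Fermt3, the kindlin of blood cells and the most abundant of the 38 genes, had 456 and 551 CPM in EV against 428 and 427 in R882H. It was not called (−0.24 ± 0.14, 95% interval −0.51 to 0.04), but passed without EV replicate 1 (−0.37, edgeR adjusted p = 0.019), and its exons overlap Trpt1, with 1782 to 2278 counts. Vcl, vinculin, had 64.2 and 62.8 CPM in EV against 56.9 and 48.4 in R882H (−0.27 ± 0.14, interval −0.55 to 0.01). Its exons overlap Ap3m1 on the other strand, which had 564 to 690 counts per library against 276 to 356 for Vcl. Tln2, the talin of muscle and brain, had 4, 8, 2 and 5 counts and was not tested.

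Pxn, Ptk2b and Zyx, whose products act at adhesion sites, were not called. The intervals of their log2 fold changes included 0, and changes of the sizes within them remain possible. The log2 fold change was −0.04 ± 0.13 for the paxillin gene Pxn (95% interval −0.31 to 0.23), with 87.7 and 98.5 CPM in EV against 95.7 and 85.5 in R882H. It was 0.03 ± 0.15 for Ptk2b (interval −0.27 to 0.33), which encodes PYK2, the focal adhesion kinase of blood cells, with 85.6 and 109 CPM in EV against 83.0 and 116 in R882H. It was 0.12 ± 0.16 for the zyxin gene Zyx (interval −0.20 to 0.44), with 33.2 and 38.5 against 37.1 and 40.9 CPM. The groups overlapped for all 3, and the exons of Zyx overlap Epha1, which had 1 to 8 counts. Ptk2, the gene of the focal adhesion kinase FAK, had 8, 5, 6 and 6 counts and was not tested.

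**Figure D4:**
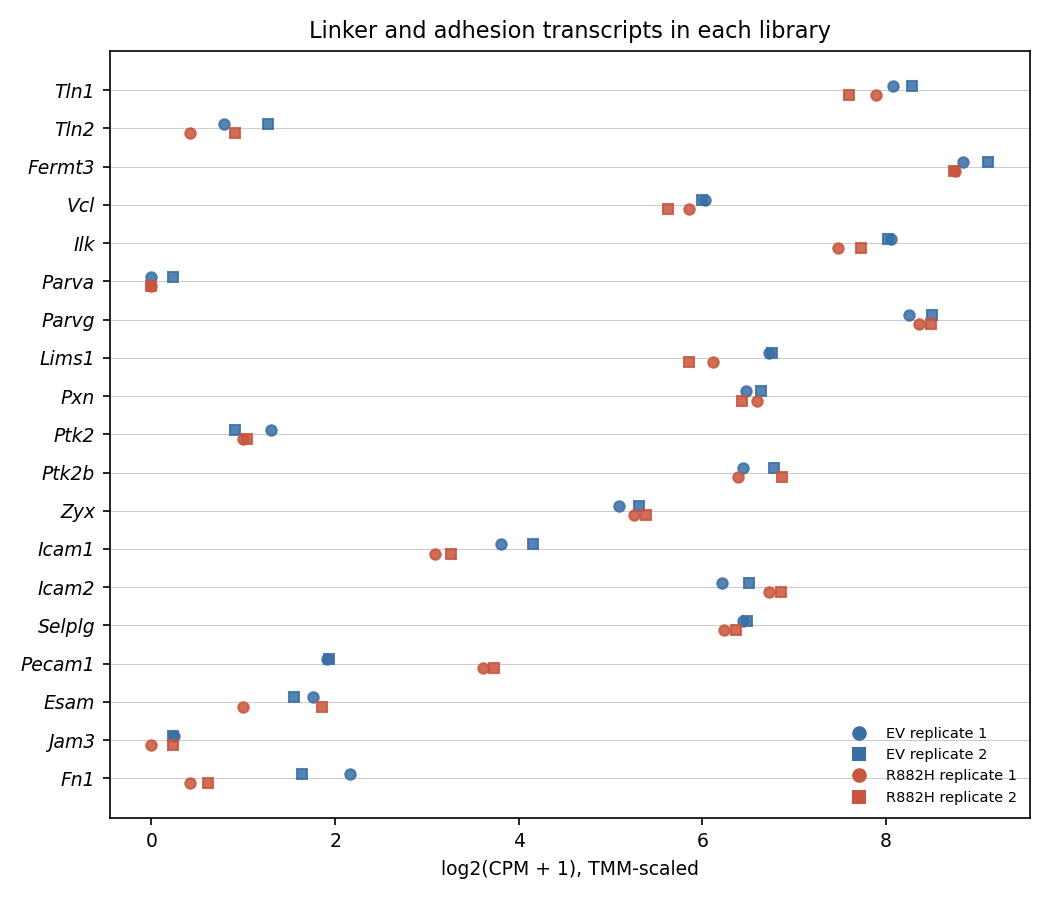
Level of the 12 linkers and activators and the 7 other adhesion genes in each library, as log2(CPM + 1) with TMM scaling (x axis). Fermt3, Parvg, Tln1 and Ilk lie highest among the linkers; Pecam1 has both R882H libraries far to the right of the EV libraries and Lims1 has them to the left.

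Among the other adhesion genes Pecam1 rose the most. Pecam1 (ENSMUSG00000020717, chromosome 11, 106654217 to 106750628), the CD31 gene of endothelial and many blood cells, had 2.75 and 2.82 CPM in EV against 11.2 and 12.3 in R882H. The groups were separated by more than their spread (log2 fold change 2.07 ± 0.31, edgeR adjusted p = 1.68e-06). The call was kept in every alternative. The endothelial genes Cdh5, Tek, Emcn, Sox17 and Robo4 had no counts in any library, while Eng had 30.8 and 37.2 CPM in EV against 40.5 and 44.2 in R882H and was not called (0.31 ± 0.16). Esam, an adhesion molecule of endothelium, platelets and stem cells, had 13 and 11 counts in EV and 6 and 15 in R882H, with overlapping groups (−0.26 ± 0.51, 95% interval −1.30 to 0.78). Jam3 had 1, 1, 0 and 1 counts and was not tested.

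The ligands of the beta2 integrins moved apart. Icam2, the ligand present on resting leukocytes, had 73.2 and 89.8 CPM in EV against 105 and 115 in R882H (0.43 ± 0.14, edgeR adjusted p = 0.012). Its call ended in DESeq2 (0.0577) and without EV replicate 1 (0.102) or R882H replicate 2 (0.136). Icam1, the ligand that inflammatory signals induce, had 13.0 and 16.8 CPM in EV against 7.53 and 8.60 in R882H (−0.89 ± 0.24, edgeR adjusted p = 0.00304). The groups did not overlap for either gene, but without EV replicate 2 the adjusted p of Icam1 was 0.0701, and its exons overlap Gm47079, which had 63 to 106 counts per library. Selplg, the PSGL-1 gene whose product binds P-selectin, had 86 and 88.3 CPM in EV against 74.5 and 81.4 in R882H and was not called (−0.16 ± 0.13, 95% interval −0.43 to 0.11).

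The genes around these members were counted from 7 lists that hold none of the 38. Of 15 tested genes of Rap1 and inside-out signalling, which turns integrins on from within the cell, 5 were higher and 2 lower (46.7% called, beside 38.8% of all tested genes), and the median log2 fold change was 0.10. Rasgrp2, the exchange factor that activates Rap1 in blood cells, had 231 ± 26.4 CPM in EV against 533 ± 23.4 in R882H (1.20 ± 0.14, edgeR adjusted p = 8.1e-09); its exons overlap Gm14965. Rap1gap2, which switches Rap1 off, rose too, from 5.11 ± 1.52 to 25.5 ± 4.47 CPM (2.31 ± 0.24), and so did Cyth1, a regulator of beta2 integrins (0.84 ± 0.17). Without R882H replicate 1 the list had 3 genes higher and 0 lower, and without genes whose exons overlap another gene, which leaves fewer genes to test, 2 were higher; 1 was lower in DESeq2 and without EV replicate 2 or R882H replicate 2. The adaptor genes Skap2 (−0.51 ± 0.13) and Apbb1ip, the RIAM gene (−0.37 ± 0.14), fell. Skap2 lost its call without R882H replicate 1 (edgeR adjusted p = 0.122). Apbb1ip lost it without EV replicate 2 (0.303), R882H replicate 1 (0.201) or R882H replicate 2 (0.183) and in DESeq2 (0.0697).

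Of 16 tested focal adhesion and actin genes 3 were higher and 7 lower (62.5% called), with a median of −0.16. Actn1, the alpha-actinin of actin bundles at adhesion sites, had 335 and 362 counts in EV and 16 and 7 in R882H, or 62.7 ± 1.74 and 1.95 ± 1.02 CPM (−4.98 ± 0.25, edgeR adjusted p = 6.24e-18). Git2, an adaptor of paxillin, rose from 61.7 ± 3.55 to 99.3 ± 0.0946 CPM (0.68 ± 0.13). Tns1, a tensin that binds beta tails, had no counts in EV and 24 and 20 in R882H. Its observed R882H level was 14 times the limit of 3 counts over the EV group, without counting error. Without R882H replicate 1 or 2 only 3 genes of the list were called lower.

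Of 12 tested genes of signalling downstream of engaged integrins (among them Src family kinases, Syk and Vav) none was called by edgeR or DESeq2, and 1 had an unadjusted p under 0.05, on the lower side. Their median log2 fold change was −0.05 and the median size of the change 0.10, beside 0.36 for all tested genes. Without EV replicate 1 a single gene of this list was called lower. Of 9 tested genes of selectins and their ligands 2 were higher and none lower (22.2% called, beside 38.8% of all tested genes). DESeq2 called none of them lower, and none had an unadjusted edgeR p under 0.05 on that side. Fut7, the fucosyltransferase that completes the selectin ligand on PSGL-1, rose from 24.7 ± 4.80 to 89.7 ± 7.38 CPM (1.86 ± 0.15, edgeR adjusted p = 4.62e-12). Gcnt1, which builds the branched glycan that carries this ligand, rose from 15.8 ± 4.37 to 26.9 ± 4.78 CPM (0.77 ± 0.20). The Gcnt1 call ended without EV replicate 2 (0.0778) and without R882H replicate 1 (0.0626). Selplg, which carries that ligand, was not called, as given above.

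Of 13 other tested adhesion receptors 2 were higher and 6 lower (61.5% called, beside 38.8% of all tested genes), with a median of −0.73. F11r, the JAM-A gene and a ligand of the beta2 dimer LFA-1, had 71 and 66 counts in EV and 2 and 0 in R882H, a ratio of EV over R882H of 71.9 with an interval from 19.5 to 600; without R882H replicate 1 that group has no counts. Pvr (−1.15 ± 0.14) and Nectin2 (−1.65 ± 0.25), ligands of the receptor DNAM-1, fell. The tetraspanin gene Tspan32 rose (0.93 ± 0.14). Other tetraspanin genes, Cd9 (−0.79 ± 0.13), Cd82 (−1.19 ± 0.29) and Cd151 (−0.59 ± 0.14), fell, and Cd81 was not called (0.19 ± 0.13). Cdh1, E-cadherin, had 2 and 0 counts in EV and 23 and 16 in R882H, a ratio of 18.6 with an interval from 4.81 to 159. The intervals of F11r and Cdh1 cover counting error only. Of 5 tested matrix ligands 1 was higher and 3 lower (80% called). Spp1, the osteopontin gene, whose product alpha9 binds, rose (0.83 ± 0.18), and Thbs1 (−2.11 ± 0.33), the laminin chain gene Lamc1 (−0.99 ± 0.17) and Mfge8 (−0.81 ± 0.14) fell. The EV libraries of Thbs1 differed, with 56 and 126 counts, and its log2 fold change without EV replicate 2 was −1.45. Of 7 integrin subunits outside the 38, Itga8 and Itgb4 were tested and neither was called by edgeR; 1 of them had an unadjusted p under 0.05, and DESeq2 called neither. With at least 10 counts asked of every library of a group, 1 was called higher.

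**Figure D5:**
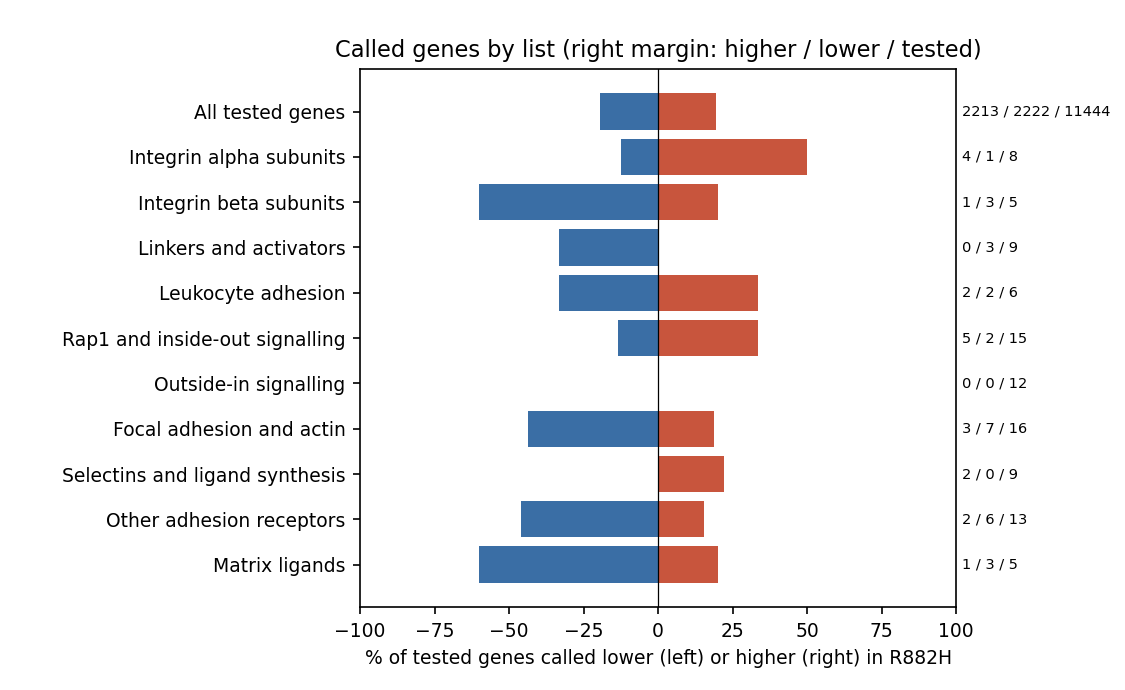
Percent of the tested genes of each list that were called higher (right, red) or lower (left, blue) in R882H, with the counts higher, lower and tested in the right margin. All tested genes stand at the top; the outside-in signalling list shows no bar, the linkers only a bar to the left, and the alpha subunits a longer bar to the right.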

How the data were processed

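RNA from Hoxb8 cells was sequenced with QuantSeq, which reads the 3′ ends of transcripts, per the labels' protocols. The authors deposited raw counts per Ensembl gene, 1 column per library. The submitters' processing notes name bcl2fastq 2.17.1.14, cutadapt 1.14, HISAT2 2.0.4, featureCounts of Subread 2.0.0, edgeR 3.34.0, limma 3.48.3 and mm10, with settings, annotation and strand not given in the sources used here. Symbols and positions came from GENCODE M21 (52489 of 52636 IDs), promoter sequences from RefSeq.

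The test was that of edgeR 4.0.16 (R 4.3.3) with filterByExpr, TMM factors, robust glmQLFit and glmQLFTest over 11444 genes in all 4 libraries. The SE is the absolute log2 fold change divided by the root of F, and is too small where a group holds few counts. Groups with no counts were set to a limit of 3 counts, and the observed level of the other group was divided by it. That ratio leaves out the counting error of the other group. Groups with 1 to 3 counts got an exact 95% Poisson interval on the summed counts. It covers counting error only and leaves out the spread between libraries. Replicates correlated with r = 0.989 (EV) and 0.99 (R882H) across genes, and their counts differed by more than sampling noise (chi-square per degree of freedom 6.91 and 4.61). The test was checked on simulated counts. Genes whose exons overlap a gene with at least 10 counts are named as uncertain.

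The 38 genes and the lists were chosen with earlier results of these data known. All 38 are reported. From each other list the rule named at most 4 called genes, by smallest p, and at most 2 against the list's majority, and from each marker list the 3 with the most counts; some genes under this rule are not reported here. The promoters shown were chosen after the values were seen: the rule's other candidates, Pecam1 and Itga6, had no entry, and that of Itga2b lies largely within the GENCODE gene model.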

Additional observations from a re-analysis of the deposited data

How the results depend on the processing

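Of the 16 genes called, 8 kept their call in every alternative that tests them (other scalings and filters, DESeq2 1.42.0, robust=FALSE, the replicate block, each library left out, overlapping genes left out) and 8 lost it in at least 1; 2 of the 12 not called passed in at least 1. DESeq2 called 1401 of all tested genes higher against 2213 by edgeR, 2 integrin subunits lower against 4 and 1 adhesion gene higher against 2. Leaving out overlapping genes left 1 linker and 1 adhesion gene lower. Leaving out each library in turn gave 1446 to 2168 genes lower in all, 2 to 5 integrin subunits lower, 1 to 2 adhesion genes higher, 1 to 2 adhesion genes lower and 5 to 10 of the 38 lower. Signs turned with 1 library left out for genes that were not called, whose log2 fold changes then ranged from −0.64 (without R882H replicate 1) to 0.73 for Itgam, −0.49 to 0.20 (without EV replicate 1) for Itgav and −1.07 to 0.30 (without R882H replicate 1) for Esam. The ranges were −0.08 to 0.17 for Parvg, with −0.0037 without R882H replicate 2, −0.13 to 0.06 for Pxn and −0.21 to 0.27 for Ptk2b. The cause of these changes was not tested. Replicate numbers are shared by the groups but nothing says that they pair the libraries, and the deviations of same-numbered libraries from their group means had a correlation of 0.00392. With the replicate block 2196 genes were higher and 2229 lower, and the counts over the 38 were 7 and 9, as without it. Of the 10 untested genes, Itga1 and Itgax had counts in R882H only. Their ratios to the count limit, given above, leave out the counting error of R882H and are not lower bounds. The exons of Itga1 also overlap Gm49395 on the same strand, so its counts are uncertain. The counts of the other untested genes were too few to show a change.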
